A study of Mus musculus with 9 samples.

Results

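The integrin and laminin subunit genes of the mouse heart were followed through left ventricle RNA of wild-type (WT) and dSG knockout (KO) mice. They were chosen by name: protein-coding genes whose symbol is that of an integrin alpha or beta chain or of a laminin alpha, beta or gamma chain. The rule found 37 genes of the 49671 listed, 26 for integrins (18 alpha, 8 beta) and 11 for laminins (5 alpha, 3 beta, 3 gamma). Polyadenylated RNA was sequenced in 9 libraries, 2 from WT mice given vehicle, 2 from WT mice given ifetroban, 2 from dSG KO mice given vehicle and 3 from dSG KO mice given ifetroban. dSG is the usual short name of delta-sarcoglycan, a part of the membrane complex that links the muscle cell to its matrix, and ifetroban blocks the thromboxane-prostanoid receptor. How the dSG allele was made, the age and number of the mice, and the dose and length of treatment were not given in the sources used here. Whether each library is a different mouse is not stated in the labels; p-values here reflect only how far these libraries differ within groups, which may be technical.

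Laminins are secreted trimers of an alpha, a beta and a gamma chain that form the sheet of the basement membrane around each cardiomyocyte and vessel. Integrins are membrane receptors that pair an alpha with a beta chain and bind laminins, collagens, fibronectin or counter-receptors on other cells. In heart muscle, laminin is held both by integrins and by dystroglycan, which is joined to the sarcoglycans in the dystrophin complex, while leukocytes and platelets carry integrins of their own.

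Level per length was taken as reads per kilobase of exon and per 1000000 counts of the library (RPKM). In its mean over the 9 libraries, the beta chain shared by many receptors, Itgb1, stood first. The muscle laminin receptor alpha chain Itga7 led the alpha chains in that mean. In KO vehicle hearts the laminin alpha chain Lama5 had 84.3 and 95.5 counts per 1000000 (CPM) against 163 and 209 in WT vehicle, the smallest p of the members in that comparison. The leukocyte chains Itgam, Itgb2 and Itgb7 and the widely expressed Itgb5 were higher in each of the 5 KO libraries than in each of the 4 WT libraries. They were 4 of the 35 tested members (11.4%), where 5.03% of all genes tested were higher in this way. None of these differences passed an adjusted p of 0.05 in edgeR's quasi-likelihood test, in which 0 members were called in any of 6 comparisons.

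The stretches of DNA before the start sites of 4 of these genes are shown because of their values given below: Itgam, Itgb7 and Itgb5 did not overlap between genotypes, and Lama5 did not overlap between the vehicle groups. Each line is the 250 bases before the start of the gene as RefSeq gives it, 5′ to 3′ on the gene's strand, on the build GRCm38.p6. The last 9 bases of the Itgb7 line lie inside the gene as the GENCODE annotation gives it. They lie at chr7:128062390-128062639 (plus strand) for Itgam, chr15:102231936-102232185 (minus strand) for Itgb7, chr16:33829415-33829664 (plus strand) for Itgb5 and chr2:180225860-180226109 (minus strand) for Lama5. Capitals mark the core GAGGAA bound by PU.1, a transcription factor of myeloid cells, and the GC box GGGCGG of widely expressed genes, on either strand (TTCCTC and CCGCCC when read on the other).
Itgam: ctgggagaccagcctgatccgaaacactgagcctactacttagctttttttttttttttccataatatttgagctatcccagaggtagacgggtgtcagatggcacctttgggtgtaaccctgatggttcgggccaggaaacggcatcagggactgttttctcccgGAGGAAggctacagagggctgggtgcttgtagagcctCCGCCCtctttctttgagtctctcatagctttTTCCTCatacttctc
Itgb7: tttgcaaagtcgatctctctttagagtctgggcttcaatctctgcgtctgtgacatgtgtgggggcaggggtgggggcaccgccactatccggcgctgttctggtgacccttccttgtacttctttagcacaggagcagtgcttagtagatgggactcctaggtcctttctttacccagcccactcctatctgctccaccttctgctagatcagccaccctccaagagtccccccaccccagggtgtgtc
Itgb5: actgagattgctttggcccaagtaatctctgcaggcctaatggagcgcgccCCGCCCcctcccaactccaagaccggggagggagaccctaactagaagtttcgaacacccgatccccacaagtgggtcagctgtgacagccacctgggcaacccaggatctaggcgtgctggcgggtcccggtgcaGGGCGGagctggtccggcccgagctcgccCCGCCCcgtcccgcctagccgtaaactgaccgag
Lama5: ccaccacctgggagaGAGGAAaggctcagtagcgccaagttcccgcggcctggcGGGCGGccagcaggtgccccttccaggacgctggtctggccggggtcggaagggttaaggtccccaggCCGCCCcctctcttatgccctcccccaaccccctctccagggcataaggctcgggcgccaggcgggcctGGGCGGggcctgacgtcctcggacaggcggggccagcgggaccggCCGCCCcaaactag
The Itgam window held the PU.1 core at 84 and at 15 bases before the start and a GC box at 47. Itgb5 held 3 GC boxes, Lama5 held 4 GC boxes and 1 PU.1 core, and Itgb7 held neither motif. A window was found for 23 of the 37 members, 26 windows in all, of which 15 lie at least in part inside the gene as GENCODE gives it. At least 1 window held the PU.1 core in 13 members and the GC box in 8. The AP-1 motif TGANTCA was found in 1 member, Itgax, at 56 bases before its start. No overlap between motifs was removed. Of 32851 windows of that length over all genes, 23.3% held the PU.1 core, 32.7% the GC box and 6.75% the AP-1 motif. These shares are per window and the counts above are per member, some with more than 1 window, so they are not compared. A match is a run of letters, not a measured binding site.

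Each library held between 21299748 and 31394548 reads counted in genes. The targeted gene, Sgcd, had 28.9, 33.1 and 31.2 CPM in 3 WT libraries and 7.49 to 18.5 CPM in the 5 KO libraries. The library labelled WT vehicle replicate 1 had 11.1 CPM of Sgcd, inside the range of the KO libraries. Values with it left out are given beside the vehicle fold changes of the members described, apart from that of Itga4. Libraries also differed in how counts depended on exonic length: in KO ifetroban replicate 1, the pair of KO vehicle libraries and the library labelled WT vehicle replicate 1, long transcripts were low (Spearman's rho of deviation on length -0.417 to -0.290), and in the other 5 they were high (0.302 to 0.386). These 4 and 5 libraries are called the long-low and long-high libraries here, and each class holds both genotypes. KO vehicle replicate 1 stood farthest from the others on the first principal component. As a check of the tissue label, cardiomyocyte markers summed to 59485 to 61516 CPM in WT and 47209 to 55344 in KO libraries, while atrial markers summed to 1.42 to 2.90.

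Levels per length differed widely between members, as the plot of level per length shows. Itgb1 averaged 107 RPKM over the 9 libraries, followed by Lamb2 at 59.8, Itgb5 at 34.3, Itga7 at 27.9, Lamc1 at 27.1, Itga5 at 18.3 and Lama5 at 13.6. Lamb1 averaged 11.4, the tenascin and VCAM receptor chain Itga9 9.07, the laminin receptor chain Itga6 8.65, Lama4 7.56 and Lama2 6.88. At the other end, Itgad had 0 to 5 reads and Lama1 0 to 4 reads in a library, and neither was tested for want of reads. The other 35 members were tested. On the same scale, Itgb1 made up 68.1% to 74.9% of the summed integrin beta level and Itgb5 20.2% to 26.2%. Itga7 made up 32.4% to 43.1% of the alpha level and the fibronectin receptor alpha chain Itga5 15.3% to 44.4%. In KO vehicle replicate 1, Itga5 (44.4%) stood above Itga7 (34.0%).

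**Figure D1:**
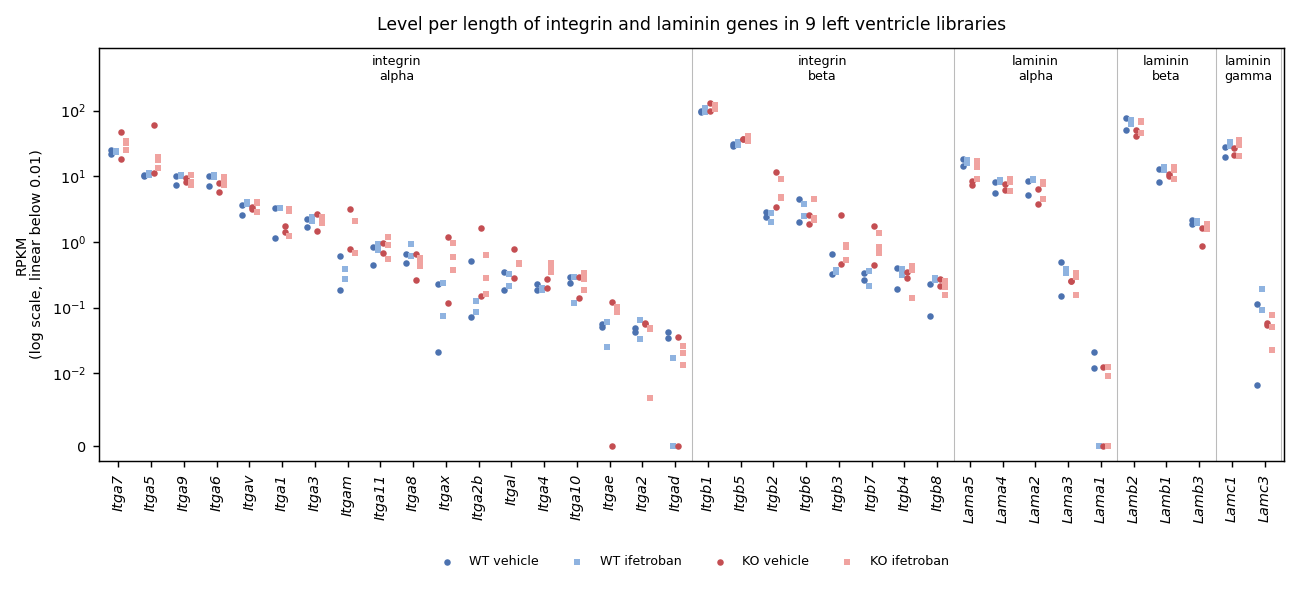
Level per length, in RPKM (reads per kilobase of exon and per 1000000 counts of the library) on a log axis that is linear below 0.01 of the integrin and laminin genes, ordered within each chain class by their mean. Each point is a library, coloured by group; Itgb1 (mean 107), Lamb2 (59.8) and Lamc1 (27.1) lead their classes, and Lama1 and Itgad lie lowest.

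Laminin chains come first, since they are the ligands. Lama5, the broadly expressed alpha chain of vessel and epithelial basement membranes (chr2:180176373-180225859, minus strand, GRCm38), had 163 and 209 CPM in WT vehicle, 202 and 184 in WT ifetroban, 84.3 and 95.5 in KO vehicle and 104, 192 and 159 in KO ifetroban libraries. Here and below, values within a group are in the order of the replicate numbers. Both KO vehicle libraries lay below every WT library, while the KO ifetroban libraries spread from near the KO vehicle values to within the WT range. The log2 fold change of KO vehicle over WT vehicle was -1.05 ± 0.268 (SE), with an unadjusted p of 0.00311 and an adjusted p of 0.241 in edgeR. With the library labelled WT vehicle replicate 1 left out, this value was -1.24. With ifetroban in both genotypes it was -0.35 ± 0.240, and averaged over treatments -0.70 ± 0.179 (adjusted p of 0.109 in edgeR). DESeq2 called Lama5 in the vehicle comparison (adjusted p of 0.0175) and in the average (adjusted p of 0.00763). Lama5 is a long transcript, of 11388 exonic bases. KO minus WT mean log2 CPM was -0.79 in the long-low libraries (3 KO, 1 WT) and -0.18 in the long-high libraries (2 KO, 3 WT). The long-high KO libraries were KO ifetroban replicates 2 and 3, and both KO vehicle libraries were long-low. The long-low WT library was the library labelled WT vehicle replicate 1. Treatment and length class thus cannot be fully told apart in these 2 values. The part of the length trend in the Lama5 difference was not tested beyond these values and the fits with the trend removed, which gave -0.85 and -0.75 in the vehicle comparison.

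Lama4 and Lama2, the alpha chains of vessel and of muscle basement membranes, were looked at beside Lama5 after their values had been seen. Lama4 had 67.4 to 107 CPM in WT and 71.2 to 109 in KO libraries, and Lama2 had 85.5 to 146 and 61.6 to 135. Their ranges overlapped between genotypes. As a share of the summed laminin alpha level per length, Lama5 held 56.6%, 51.9%, 49.3% and 48.2% in the WT libraries, 41.8% and 36.7% in KO vehicle and 46.3%, 49.8% and 45.3% in KO ifetroban. Lama4 held 22.1% to 24.7% in WT and 26.6% to 35.4% in KO libraries, without overlap. The ratio of Lama5 to Lama4 was 2.56, 2.25, 1.996 and 1.95 in the WT libraries, 1.18 and 1.08 in KO vehicle and 1.54, 1.87 and 1.69 in KO ifetroban. Each KO ratio was thus below each WT ratio. The pair was picked for this pattern, so no test is given, and the plot of laminin alpha composition shows it by library.

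**Figure D2:**
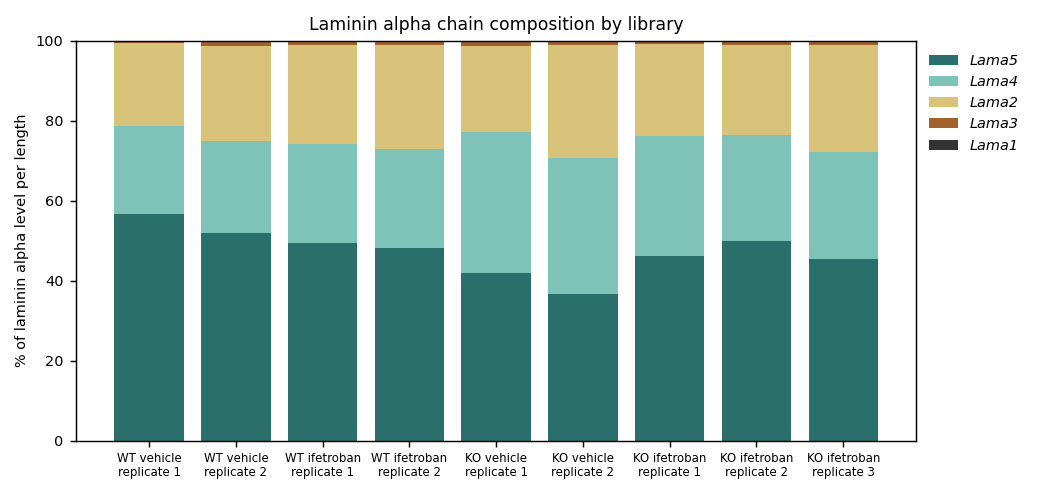
Share of each laminin alpha gene in the summed laminin alpha level per length (% on the vertical axis, from 0 to 100) in each of the 9 libraries. Lama4 takes 22.1% to 24.7% in WT and 26.6% to 35.4% in KO libraries; Lama5 is lowest in the KO vehicle libraries, at 41.8% and 36.7%.

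Among the beta chains, Lamb2, the beta chain of mature muscle and vessel laminins, had 308 and 475 CPM in WT vehicle, 378 and 445 in WT ifetroban, 247 and 308 in KO vehicle and 281, 417 and 412 in KO ifetroban libraries. The vehicle groups met at 308, with the KO value just under the WT value. Its log2 fold change in the vehicle comparison was -0.50 ± 0.263 (adjusted p of 0.457 in edgeR). It was -0.80 with the library labelled WT vehicle replicate 1 left out and -0.16 with WT vehicle replicate 2 left out. Lamb2 made up 78.7% to 84.3% of the beta level per length in every library. Lamb3, the beta chain of epithelial anchoring laminin, had 14.5 and 12.3 CPM in WT vehicle, 13.1 and 13.6 in WT ifetroban, 5.77 and 10.8 in KO vehicle and 11.5, 12.5 and 10.6 in KO ifetroban libraries. The low value was that of KO vehicle replicate 1. The vehicle fold change of -0.69 ± 0.272 on the log2 scale (adjusted p of 0.359 in edgeR) became -0.32 without that library and -0.60 with the library labelled WT vehicle replicate 1 left out. Lamb1 ranged from 80.6 to 138 CPM in all libraries with overlapping genotypes.

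The gamma chain Lamc1, a part of most laminin trimers, made up 88.6% to 97.0% of the gamma level per length. It had 162 and 233 CPM in WT vehicle, 276 and 236 in WT ifetroban, 175 and 225 in KO vehicle and 168, 249 and 294 in KO ifetroban libraries, so the groups overlapped apart from WT ifetroban, which was above WT vehicle. Lamc3 was near its floor, with 1 to 31 reads in a library. Its CPM was 0.0513 and 0.696 in WT vehicle, 1.19 and 0.555 in WT ifetroban, 0.326 and 0.357 in KO vehicle and 0.140, 0.307 and 0.465 in KO ifetroban. With ifetroban the KO libraries lay below the WT libraries, by -1.48 ± 0.757 on the log2 scale (adjusted p of 0.979 in edgeR). Over the 10 tested laminins, the averaged fold change had a median of -0.36 against 0.00 for all genes tested. The laminins have 6082 to 16338 exonic bases, and 3 of the long-low libraries were KO and 1 was WT. KO minus WT mean log2 CPM was -0.79 for Lama5, -0.15 for Lamb2 and 0.22 for Lamc1 in the long-low libraries. In the long-high libraries it was -0.18, -0.05 and 0.13. These are the most abundant laminins of each chain class. The part of the length trend in the median was not tested.

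The receptors of laminin had smaller fold changes than Lama5 in the vehicle comparison. Itga7 (chr10:128933818-128958282, plus strand), the main laminin-binding alpha chain of heart and skeletal muscle, had 174 and 205 CPM in WT vehicle, 198 and 193 in WT ifetroban, 378 and 149 in KO vehicle and 274, 259 and 202 in KO ifetroban libraries. The 2 KO vehicle libraries lay on either side of all WT libraries. The log2 fold change of 0.47 ± 0.354 in the vehicle comparison turned to -0.35 without KO vehicle replicate 1 and was 0.33 with the library labelled WT vehicle replicate 1 left out. Its partner Itgb1 had 399 and 389.8 CPM in WT vehicle, 439.9 and 383 in WT ifetroban, 528 and 399.6 in KO vehicle and 477, 489 and 430.3 in KO ifetroban libraries. The difference averaged over treatments was 0.21 ± 0.123 on the log2 scale (adjusted p of 0.414 in edgeR). Itga6 had 64.9 to 93.3 CPM in WT and 52.0 to 88.7 in KO libraries. Itga3 and Itgb4, the other laminin receptor chains, also overlapped between genotypes. Neither Itgb1 nor any of the 4 laminin receptor chains Itga3, Itga6, Itga7 and Itgb4 had an unadjusted p under 0.05 in the average.

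Of the collagen receptor alpha chains, Itga1 was the most abundant at 21.4 to 60.9 CPM. Its 4 lowest values, 21.4 to 32.2, were those of the 4 long-low libraries of both genotypes. Itga11, carried by fibroblasts, had 2.26 to 6.09 CPM, Itga10 0.614 to 1.75 and Itga2 0.0467 to 0.460. No member of the 4 had an unadjusted p under 0.05 in the average.

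Among receptors of fibronectin and other RGD ligands, Itgb5 (chr16:33829665-33949338, plus strand), the vitronectin receptor beta chain, had 104 and 109 CPM in WT vehicle, 105 and 117 in WT ifetroban, 134 and 132 in KO vehicle and 124, 129.5 and 144 in KO ifetroban libraries. All 5 KO libraries lay above all 4 WT libraries. Its log2 fold change was 0.31 ± 0.156 with vehicle and 0.25 ± 0.143 with ifetroban, and 0.28 ± 0.106 in the average (adjusted p of 0.238 in edgeR). KO minus WT mean log2 CPM was 0.32 in the long-low libraries (3 KO, 1 WT) and 0.31 in the long-high libraries (2 KO, 3 WT). The long-low value rests on 1 WT library, the one labelled WT vehicle replicate 1, whose Sgcd level was inside the KO range. The fold change in the vehicle comparison was 0.31 without KO vehicle replicate 1. With the library labelled WT vehicle replicate 1 left out, the vehicle value was 0.26. It was called in none of the alternatives run.

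Itga5 (chr15:103344286-103366763, minus strand), which pairs with Itgb1 as the fibronectin receptor, had 49.2 and 51.6 CPM in WT vehicle, 51.5 and 56.1 in WT ifetroban, 300.0 and 54.7 in KO vehicle and 87.4, 96.1 and 65.1 in KO ifetroban libraries. KO vehicle replicate 1 was far above the rest, and KO vehicle replicate 2 was inside the WT range. The vehicle fold change of 1.81 ± 0.583 on the log2 scale (unadjusted p of 0.0115, adjusted p of 0.296 in edgeR) became 0.12 without KO vehicle replicate 1 and 1.75 with the library labelled WT vehicle replicate 1 left out. With ifetroban, all 3 KO libraries lay above both WT libraries, by 0.62 ± 0.526 (adjusted p of 0.979 in edgeR). Itgav, the alpha chain shared by many RGD receptors, had 27.5 and 38.9 CPM in WT vehicle, 41.3 and 42.9 in WT ifetroban, 34.6 and 36.1 in KO vehicle and 30.9, 44.0 and 42.4 in KO ifetroban libraries, with overlap between genotypes. Itgb8, which with Itgav takes part in activating latent TGF-beta, had 0.821 and 2.51 CPM in WT vehicle, 2.91 and 3.13 in WT ifetroban, 2.98 and 2.34 in KO vehicle and 1.73, 2.27 and 2.79 in KO ifetroban libraries. Itga8 and Itgb6 ranged from 1.95 to 6.83 and from 13.3 to 32.5 CPM with overlap between genotypes.

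The platelet fibrinogen receptor chains varied widely between libraries. Itgb3, also carried by endothelial cells and macrophages, had 1.90 and 3.90 CPM in WT vehicle, 2.07 and 2.18 in WT ifetroban, 15.4 and 2.74 in KO vehicle and 5.38, 4.97 and 3.10 in KO ifetroban libraries. The averaged log2 fold change was 1.35 ± 0.460 (adjusted p of 0.204 in edgeR, 0.0307 in DESeq2). In the vehicle comparison, 1.63 ± 0.669 became -0.10 without KO vehicle replicate 1 and 1.19 with the library labelled WT vehicle replicate 1 left out. Itga2b, its platelet partner, was named after its values were seen. It had 2.82 and 0.386 CPM in WT vehicle, 0.690 and 0.475 in WT ifetroban, 8.84 and 0.834 in KO vehicle and 3.51, 1.53 and 0.892 in KO ifetroban libraries. Its 3 highest values were those of the library labelled WT vehicle replicate 1, KO vehicle replicate 1 and KO ifetroban replicate 1. Its vehicle fold change of 1.62 on the log2 scale became 3.59 with the library labelled WT vehicle replicate 1 left out and -0.90 without KO vehicle replicate 1. The same 3 were highest in the sum of 10 platelet markers, at 19.5, 48.2 and 26.6 CPM against 8.12 to 17.9 in the other 6. None of these markers was 0 in all libraries. The part of platelet RNA in these values was not tested.

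The leukocyte integrins included 3 of the 4 members that did not overlap between genotypes. These 4 were 11.4% of the 35 tested members, where 5.03% of all genes tested were higher in all KO than in all WT libraries. Itgam (chr7:128062640-128118491, plus strand), the alpha chain of the myeloid complement receptor, had 3.08 and 0.927 CPM in WT vehicle, 1.96 and 1.39 in WT ifetroban, 16.0 and 3.93 in KO vehicle and 10.5, 3.44 and 3.45 in KO ifetroban libraries. All KO libraries lay above all WT libraries, the nearest being 3.44 against 3.08. The log2 fold change was 2.34 ± 0.809 with vehicle (adjusted p of 0.319), 1.78 ± 0.759 with ifetroban (adjusted p of 0.979) and 2.06 ± 0.555 in the average (adjusted p of 0.128), all in edgeR. Its partner Itgb2 (chr10:77530252-77565708, plus strand), the beta chain shared by several leukocyte integrins, had 8.83 and 7.34 CPM in WT vehicle, 8.28 and 6.18 in WT ifetroban, 36.1 and 10.4 in KO vehicle and 28.1, 14.4 and 14.7 in KO ifetroban libraries. Again no KO library reached down to a WT library. Its log2 fold change was 1.52 ± 0.528 with vehicle, 1.40 ± 0.494 with ifetroban and 1.46 ± 0.361 in the average (adjusted p of 0.101 in edgeR, 0.000809 in DESeq2). Without KO vehicle replicate 1 the vehicle fold changes were 1.01 for Itgam and 0.36 for Itgb2. With the library labelled WT vehicle replicate 1 left out, they were 3.39 for Itgam and 1.63 for Itgb2.

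Itgb7 (chr15:102215995-102231944, minus strand), the lymphocyte beta chain that pairs with Itga4 or Itgae, had 0.719 and 0.927 CPM in WT vehicle, 0.997 and 0.594 in WT ifetroban, 4.84 and 1.23 in KO vehicle and 3.74, 1.90 and 2.29 in KO ifetroban libraries, or 14 to 104 reads in a library. The genotypes did not overlap. Its averaged log2 fold change was 1.79 ± 0.434, with the smallest p of all members in that comparison (adjusted p of 0.0963 in edgeR, 0.00232 in DESeq2), and its vehicle fold change was 1.86 ± 0.634 with and 0.57 without KO vehicle replicate 1. With the library labelled WT vehicle replicate 1 left out, that value was 1.67. Itgax, carried by dendritic cells and macrophages, had 0.103 and 1.08 CPM in WT vehicle, 1.15 and 0.357 in WT ifetroban, 5.68 and 0.556 in KO vehicle and 4.58, 2.82 and 1.82 in KO ifetroban libraries. KO vehicle replicate 2 lay inside the WT range, and the vehicle fold change of 2.30 ± 1.09 on the log2 scale turned to -0.17 without KO vehicle replicate 1 and was 1.48 with the library labelled WT vehicle replicate 1 left out. Itgal, the lymphocyte partner of Itgb2, had 1.23 and 2.32 CPM in WT vehicle, 1.42 and 2.14 in WT ifetroban, 5.16 and 1.87 in KO vehicle and 3.18, 3.01 and 3.03 in KO ifetroban libraries. The 3 KO ifetroban values were close to each other and above both WT ifetroban values (0.79 ± 0.448 on the log2 scale, adjusted p of 0.979 in edgeR).

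Itga4 (chr2:79255426-79333123, plus strand), the leukocyte receptor chain for VCAM and fibronectin, followed another pattern. It had 2.62 and 3.25 CPM in WT vehicle, 2.76 and 2.61 in WT ifetroban, 3.86 and 2.82 in KO vehicle and 4.82, 6.75 and 5.39 in KO ifetroban libraries. The 3 KO ifetroban libraries lay above the other 6. The log2 fold change was 0.18 ± 0.286 with vehicle and 1.07 ± 0.264 with ifetroban, the latter with the smallest p of the members in that comparison (unadjusted p of 0.00242, adjusted p of 0.545 in edgeR). The interaction was 0.89 ± 0.387 (unadjusted p of 0.0447, adjusted p of 0.9998 in edgeR). Itgae had 0 to 13 reads in a library.

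Marker sums of blood cells stood beside these chains as follows. The 14 macrophage and monocyte markers summed to 287 to 411 CPM in WT and 604 to 857 in KO libraries. Of the 14, 10 were higher in every KO than in every WT library, as 5.03% of all genes tested were. Neutrophil markers summed to 1.07 to 8.47 CPM in WT and 4.96 to 18.0 in KO libraries. T and NK cell markers summed to 1.03 to 3.09 and 2.06 to 3.22 CPM, and B cell markers to 8.04 to 12.8 and 7.58 to 14.9, both with overlap. No marker in these 4 lists was 0 in all libraries. In RNA of whole tissue, more cells of a type and more RNA per cell cannot be told apart. The part of cell numbers in the leukocyte integrin values was not tested. The plot of platelet and leukocyte integrins beside marker sums sets Itga2b and Itgb2 next to these lists.

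**Figure D3:**
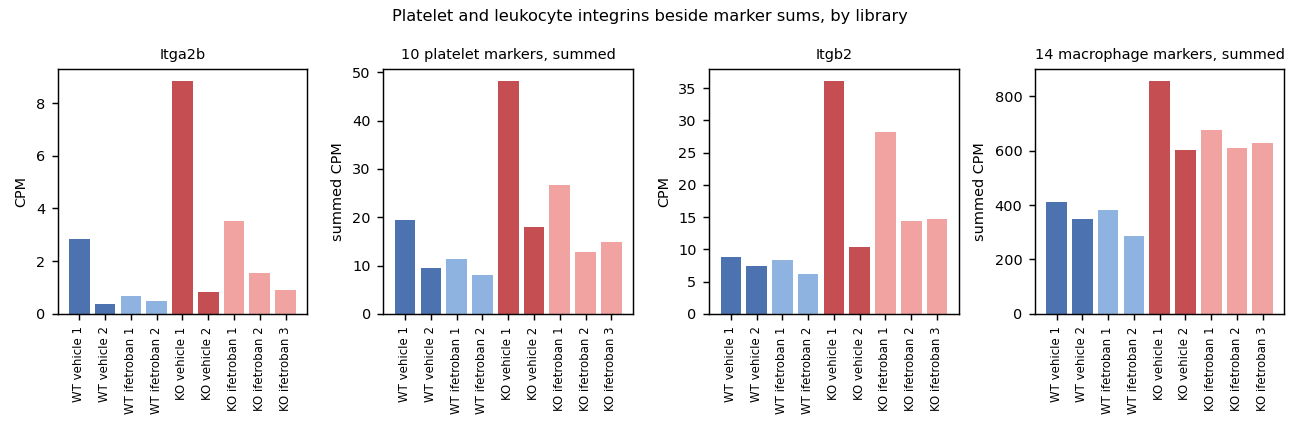
CPM of Itga2b and Itgb2 and summed CPM of 10 platelet and 14 macrophage markers, each bar a library, coloured by group, with axes from 0. Itga2b and the platelet sum are highest in KO vehicle replicate 1 (8.84 and 48.2); the macrophage sum is 604 to 857 in KO and 287 to 411 in WT libraries.

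Set side by side, the comparisons of knockout with wild type gave these counts. With vehicle, 8 of the 35 tested members (22.9%) had an unadjusted p under 0.05, where 12.5% of all 15261 genes tested had one. Of them 6 were higher in KO (8.26% of all genes) and 2 lower (4.25%). None passed the adjusted threshold in edgeR, which 0.0524% of all genes did, and DESeq2 called 1, Lama5, with 373 of all genes (2.44%). With ifetroban, 4 members (11.4%) had an unadjusted p under 0.05, all leukocyte integrins and all higher in KO (Itga4, Itgb7, Itgb2 and Itgam), against 4.7% of all genes, or 3.85% counting those higher. None was called by edgeR, where 0.0131% of genes were, or by DESeq2. Averaged over treatments, 12 members (34.3%) had an unadjusted p under 0.05, against 16.5% of all genes. Of them 10 were higher (10.6% of all genes) and 2 lower (5.94%). None was called by edgeR (0.537% of genes were), and DESeq2 called 5: Itgam, Itgb2, Itgb3 and Itgb7 as higher and Lama5 as lower, with 754 of all genes (4.94%). The vehicle and ifetroban comparisons share no library, and the average is made of both. Without KO vehicle replicate 2, edgeR called 9 members with vehicle and 13 in the average, where it called 1734 (10.9%) and 2098 (13.1%) of the 15957 genes then tested. Without KO vehicle replicate 1 it called 0 members in both.

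By group of members, the averaged fold changes of all 7 tested leukocyte integrins were positive. Their median was 1.46 on the log2 scale, against 0.00 over all genes tested. Of these 7, 6 had an unadjusted p under 0.05 in the average, as 16.5% of all genes did. Of the 6 RGD receptor chains it was 2 (Itga5 and Itgb5), of the 2 platelet chains 1 (Itgb3), and of the 4 laminin receptor and 4 collagen receptor alpha and beta chains 0. Lama5 and Lamb3 were among the laminins with an unadjusted p under 0.05, both lower in KO. Of the 35 tested members, 4 (11.4%) were higher in all KO than in all WT libraries, where 5.03% of all genes were, and 0 were lower in all, where 2.28% were. With vehicle, 7 members were higher in both KO than in both WT libraries (20.0%, against 16.8% of all genes) and 3 lower (8.57%, against 18.2%): Lama5, Lamb2 and Lamb3. With ifetroban, 13 were higher in all 3 KO than in both WT libraries (37.1%, against 16.1%) and 7 lower (20.0%, against 12.9%). Those 7 were Itga1, Itga6, Itga8, Itgb8, Lama2, Lamb3 and Lamc3. The plot of fold changes gives both comparisons for each tested member.

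**Figure D4:**
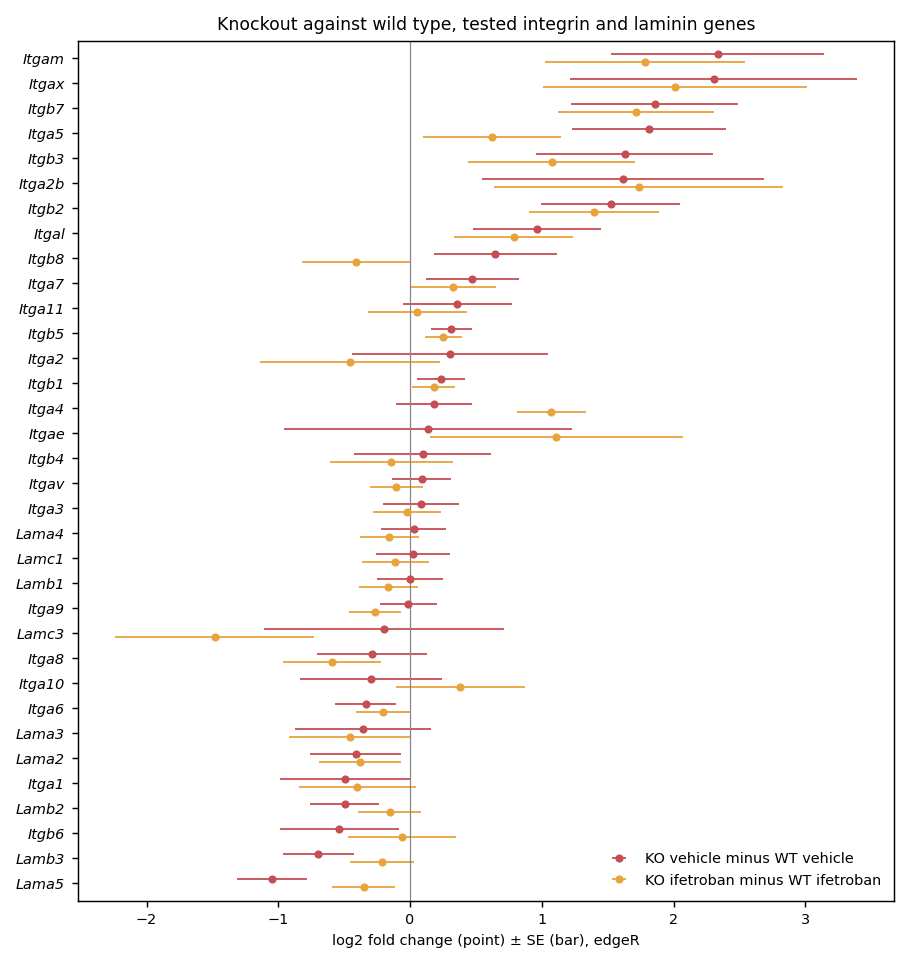
Log2 fold change of knockout over wild type from edgeR for the tested members, with vehicle (red) and with ifetroban (orange); bars are ± 1 SE, and members are ordered by the vehicle value. Itgam (2.34 with vehicle, 1.78 with ifetroban) stands at the top and Lama5 (-1.05 and -0.35) at the bottom.

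Ifetroban against vehicle was compared within each genotype. In KO mice, 2 of 35 members (5.71%) had an unadjusted p under 0.05, against 5.02% of all genes. Both were higher with ifetroban, as 2.59% of all genes were, and 0 were called by edgeR or DESeq2, where edgeR called 0% of all genes. They were Lama5, at 0.75 ± 0.248 on the log2 scale (unadjusted p of 0.013), and Itga4, at 0.76 ± 0.260 (unadjusted p of 0.0156), each with an adjusted p of 0.688 in edgeR. These were also the 2 members of which every KO ifetroban value lay above both KO vehicle values, as 8.38% of all genes did, and 1 member, Itga2, lay below (7.58%). Lama5 and Itga4 are long transcripts, of 11388 and 13978 exonic bases. Both KO vehicle libraries were long-low, as was KO ifetroban replicate 1, while KO ifetroban replicates 2 and 3 were long-high. Ifetroban and length class thus cannot be fully told apart here, and the part of the length trend was not tested beyond the alternatives. Over all alternatives the fold changes ran from 0.32 to 0.96 for Lama5 and from 0.45 to 1.01 for Itga4. Itga5 was at -1.10 ± 0.508 and at 0.60 without KO vehicle replicate 1. The 4 non-overlapping members of the genotype comparison had fold changes between -0.79 (Itgam) and 0.00 (Itgb5) with ifetroban in KO mice, Itgb2 being at -0.28 ± 0.462 and Itgb7 at -0.20 ± 0.530.

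In WT mice, 0 of 35 members had an unadjusted p under 0.05 with ifetroban, against 1.26% of all genes, and 0 were called by edgeR or DESeq2, with 0% of all genes called. The smallest p values were those of Itgb8 (0.83 ± 0.463 on the log2 scale), Itgav (0.34 ± 0.221) and Lamc3 (1.14 ± 0.841), with an adjusted p of 0.999 in edgeR for each. Of the 35, 7 lay higher in both WT ifetroban than in both WT vehicle libraries (20.0%, against 14.9% of all genes) and 0 lower (against 16.5%). These 7 are long transcripts, of 7691 to 16338 exonic bases. Both WT ifetroban libraries and WT vehicle replicate 2 were long-high, and the library labelled WT vehicle replicate 1 was long-low. Ifetroban and length class thus cannot be fully told apart here either, and the part of the length trend in this count was not tested. In Itgb8, Itgav and Lamc3 the lowest value of the 4 libraries was that of the library labelled WT vehicle replicate 1. With it left out, the fold changes were 0.27 for Itgb8, 0.12 for Itgav and 0.33 for Lamc3, and with WT vehicle replicate 2 left out they were 1.89, 0.63 and 3.98. In the interaction of genotype and ifetroban, 1 member, Itga4, had an unadjusted p under 0.05 (2.86%, against 1.38% of all genes), and 0 were called by edgeR or DESeq2. Lama5 was at 0.70 ± 0.361 and Itgb8 at -1.06 ± 0.620 on the log2 scale in the interaction. With the library labelled WT vehicle replicate 1 left out these were 0.88 and -0.47, and over all alternatives that of Itgb8 ran from -2.10 to -0.31.

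**Figure D5:**
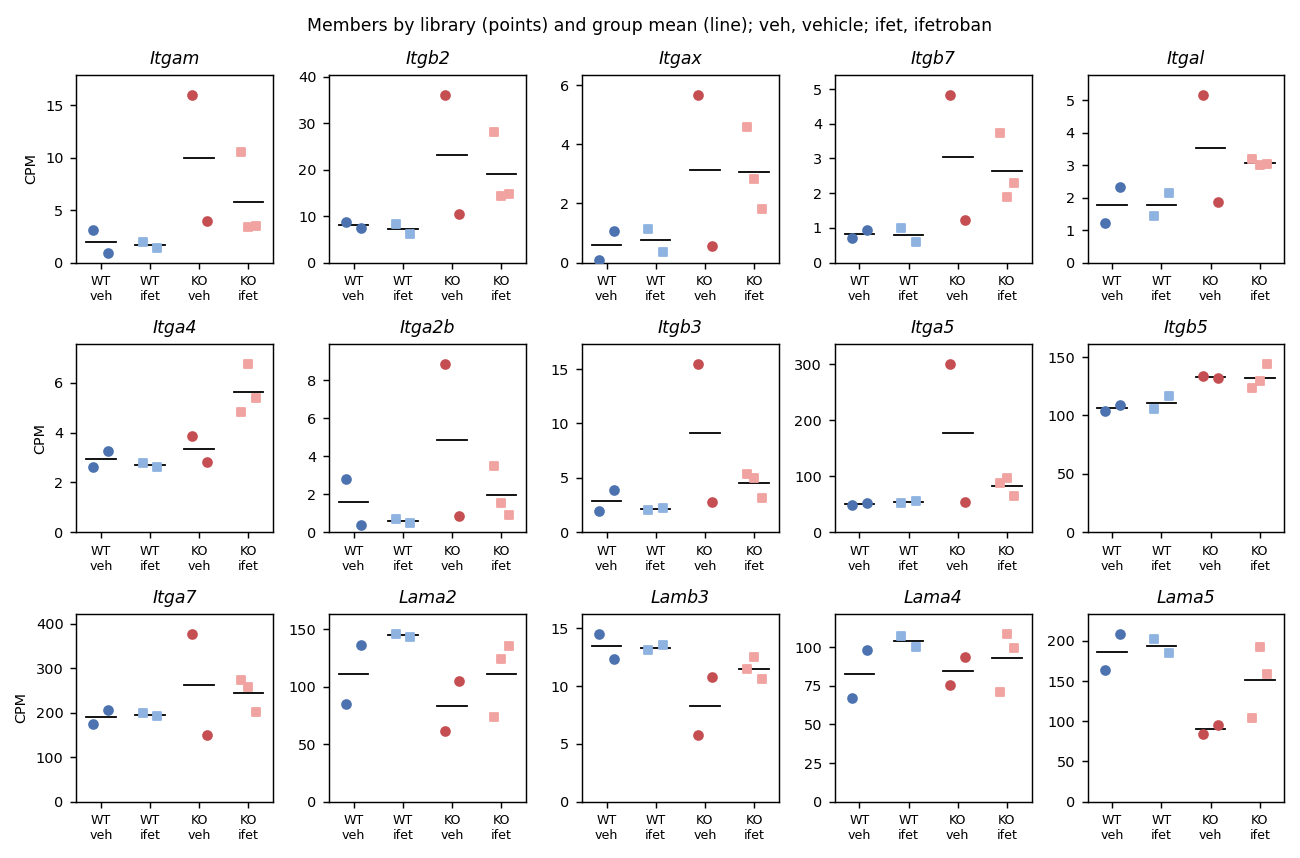
CPM of 15 members by group (veh, vehicle; ifet, ifetroban), each point a library and each line a group mean, with every vertical axis from 0. KO vehicle replicate 1 is the high point of Itga5 (300.0), Itgb3 (15.4) and Itga2b (8.84), while both KO vehicle libraries are low in Lama5 (84.3 and 95.5) and both are above WT in Itgb5 (134 and 132).

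Genes that work with these chains were read from 3 lists in the comparison averaged over treatments. Of all genes tested, edgeR called 0.537% in that comparison. An unadjusted p under 0.05 was found in 10.6% of all genes as higher and in 5.94% as lower. Of 24 partners of laminin in the basement membrane, 22 were tested, 0 were called by edgeR and 1 in each direction had an unadjusted p under 0.05, with a median log2 fold change of -0.09. The 4 of smallest p were Sparc, a matrix protein that binds collagen (0.65 ± 0.177, adjusted p of 0.129), Egflam, the dystroglycan ligand pikachurin (-0.46 ± 0.171), Fras1 (-1.22 ± 0.549) and Dag1, dystroglycan itself (-0.32 ± 0.148). Of 40 integrin adaptors and focal adhesion genes, 39 were tested and 0 were called. Their unadjusted p was under 0.05 for 12 higher and 2 lower, and the median was 0.19. They were led by the endocytic adaptor Dab2 (0.70 ± 0.147, adjusted p of 0.0696 in edgeR), Parvg, a parvin of blood cells (1.81 ± 0.417), the kinase Ptk2b (0.57 ± 0.155) and Fermt3, the kindlin of blood cells (0.96 ± 0.265).

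Of 30 integrin ligands other than laminins, 24 were tested, 3 rose in KO hearts at the adjusted threshold and 0 fell. Of all genes tested, 0.537% were called. The unadjusted p was under 0.05 for 16, all higher, where 10.6% of all genes were higher and 5.94% lower. The median was 0.56. Postn (periostin), a matrix protein of activated fibroblasts, had 37.9 to 61.1 CPM in WT and 84.3 to 295 in KO libraries and rose by 1.82 ± 0.259 on the log2 scale (adjusted p of 0.0304 in edgeR). Tnc (tenascin-C), a ligand of the Itga9 receptor, had 0.975 to 3.14 CPM in WT and 7.43 to 146 in KO libraries and rose by 5.06 ± 0.849 (adjusted p of 0.0451 in edgeR). Fn1 (fibronectin), the ligand of the Itga5 receptor, had 33.9 to 62.7 CPM in WT and 96.0 to 210.3 in KO libraries and rose by 1.51 ± 0.254 (adjusted p of 0.0451 in edgeR). Spp1 (osteopontin) had 0.205 to 0.729 and 2.18 to 56.8 CPM, at 5.78 ± 1.05 (adjusted p of 0.0529 in edgeR). Myofibroblast markers, a list of 10 that holds Postn and Tnc, summed to 205 to 247 CPM in WT and 432 to 840 in KO libraries, and the part of cell numbers in these ligands was not tested. The calls of Postn, Tnc and Fn1 were kept in 10, 8 and 8 of 17 alternatives, with fold changes from 1.49 to 2.07, 3.25 to 5.52 and 0.99 to 1.75. Leaving out any WT library, or KO ifetroban replicate 2 or 3, ended all 3 calls, with adjusted p values in edgeR of up to 0.239 for Postn and 0.275 for Tnc and Fn1 without WT ifetroban replicate 2. Leaving out KO ifetroban replicate 1 ended those of Tnc (0.0850) and Fn1 (0.0862), and leaving out KO vehicle replicate 1 that of Fn1 (0.0657).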

How the data were processed

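RNA of the left ventricle was sequenced in 9 libraries of 4 groups. The authors deposited raw read counts, a table per library with a row per gene. STAR 2.5.2b, HTSeq and the mouse build GRCm38 are named in the submitters' processing notes; the annotation release is not given in the sources used here. Per the file headers and row names, the deposited counts hold 3 columns (without regard to strand, and for each strand) and 4 rows that name no gene. These 4 rows held 26.6% to 31.9% of the reads and were left out of library sizes and tests. The reverse-strand column, with 14.5 times the counts of the forward column, was used. Of 49671 identifiers, 49412 were matched to GENCODE annotation of GRCm38 for symbols, coordinates (counted from 1) and exonic length. The chi-square per degree of freedom was 13.8 to 84.1 between replicates, so within a group no replicate was a copy of another; libraries of different groups were not compared in this way.

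CPM values are counts per 1000000 of the TMM library size and compare libraries; RPKM values, computed here, also divide by exonic length and compare genes. Counts were tested with edgeR 4.0.16 in R 4.3.3 (quasi-likelihood F test, TMM, filterByExpr, prior count 0.125, all 9 libraries, 1 coefficient per group, two-sided). Benjamini-Hochberg adjustment ran over all 15261 genes tested, and an adjusted p under 0.05 was called. Standard errors were calculated back from the F statistic and are approximate. The fit was tried on simulated counts in which known genes were changed 4-fold or 8-fold. At the spread estimated from the data it called 99 of 100 and 100 of 100 of them, with 10 other genes called. The simulation held no length trend and no outlying library, so it does not show how well the fit works on these libraries.

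The members and lists were chosen with earlier results of these data known. Values in every library are given for the 8 members of smallest p in each genotype comparison, the 3 of smallest p in each other comparison and the most abundant member of each chain class; from the lists, called genes and the 4 of smallest p are named. Alternatives were DESeq2 1.42.0, RLE size factors, no filter, a replicate block, counts without regard to strand, 2 corrections for the length trend, fits of only the 2 groups compared, and leaving out libraries. Replicate numbers recur in each group, but no label says that they pair animals. The values of 1 member are not reported here, and it is not drawn in the figures.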

Additional observations from a re-analysis of the deposited data

Results flagged for a closer look

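In each tested member, the highest and lowest CPM within the 4 WT and within the 5 KO libraries, over both treatments, were compared with the next value. Of 70 such sets, 12 held a library whose gap to its nearest neighbour was large for the range of the set (Dixon's 95% critical value, which chance passes in about 1 in 20 sets). The library labelled WT vehicle replicate 1 was the one in 5 of the 12. It was lowest of the WT libraries for Itga1 (21.4 CPM, next 60.1), Itga6 (64.9, next 89.6), Itga9 (56.9, next 77.7) and Lama2 (85.5, next 136) and highest for Itga2b (2.82, next 0.690). It was also the only WT library of the long-low class. KO vehicle replicate 1 was the one in 3 sets, as the highest KO library for Itga5 (300.0 CPM, next 96.1) and Itgb3 (15.4, next 5.38) and the lowest for Lamb3 (5.77, next 10.6).

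The other 4 were single values. WT vehicle replicate 2 was high in Itgb3 among WT libraries (3.90 CPM, next 2.18). KO ifetroban replicate 2 was high in Itgb6, a beta chain of epithelia, among KO libraries (32.5 CPM, next 18.4). KO ifetroban replicate 1 was low in Itga2 (0.0467 CPM, 1 read), and KO vehicle replicate 2 had 0 CPM of Itgae, both at a depth where a few reads set the value.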

How the results depend on the processing

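Member counts past the adjusted threshold, 0 in all 6 comparisons of the main edgeR test, depended on the fit. With no filter on low counts they were 9 in KO vehicle against WT vehicle, 5 in KO ifetroban against WT ifetroban, 10 in the averaged genotype comparison, 3 in KO ifetroban against KO vehicle and 1 in the interaction. Of all 27246 genes then tested, 1195, 428, 1684, 428 and 73 were called in these comparisons. With DESeq2 they were 1 with vehicle and 5 in the average, among 373 and 754 of all genes, where edgeR called 8 and 82. With the replicate number as a block, 4 were called in the average (Itgam, Itgb2, Itgb7 and Lama5) among 531 of all genes, and the replicate block changed no other member call. Same-numbered deviations correlated at 0.0236 to 0.352. Leaving out each library in turn gave 0 to 9 with vehicle, 0 to 13 in the average and 0 to 4 in KO ifetroban against KO vehicle, with every count above 0 coming from leaving out KO vehicle replicate 2, when 1734, 2098 and 449 of all genes were called. In the remaining comparisons leaving out a library gave 0. RLE size factors, counts without regard to strand, both corrections for the length trend and fits of only the 2 groups compared called 0. The cause of these differences was not tested. Of 724 fold changes of named members under the alternatives, 9 changed sign, all without KO vehicle replicate 1. With only that library left out, log2 fold changes in the vehicle comparison became -0.90 for Itga2b, -0.35 for Itga7, -0.17 for Itgax and -0.10 for Itgb3, and that of Itga5 in KO ifetroban against KO vehicle became 0.60. With the library labelled WT vehicle replicate 1 also left out, they were -0.46 for Itga7, -0.95 for Itgax, -0.50 for Itgb3 and 0.60 for Itga5. The median over tested members in the vehicle comparison moved from 0.10 to -0.11 without the library labelled WT vehicle replicate 1 and to 0.37 with a term for the length class. Leaving out each library gave -0.90 to 3.59 for Itga2b, -0.35 to 0.99 for Itga7, -0.17 to 4.83 for Itgax and -0.10 to 2.39 for Itgb3 with vehicle, and -1.85 to 0.60 for Itga5 in KO ifetroban against KO vehicle. Depth was lowest for Lama1, Itgad and Itga2, with at most 4, 5 and 12 reads in a library.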
